A study of Gallus gallus with 6 samples.

Results

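The genes for subunits of the mitochondrial respiratory chain were followed in RNA-seq of cloacal skin from 6 Ma-Huang chickens. They were taken as the genes in the files whose NCBI chicken symbol starts with NDUFA, NDUFB, NDUFC, NDUFS or NDUFV (complex I), SDHA to SDHD (complex II), UQCR (complex III), COX4 to COX8 (complex IV) or ATP5 (complex V), leaving out assembly factors and genes of chromosome W. This gave 71 of the 18315 genes, 33 for complex I, 4 for complex II, 8 for complex III, 9 for complex IV and 17 for complex V. All 71 were above 1 FPKM in every library, so none was lost to the filter on low values. FPKM are the fragments of a gene scaled to its exon length and to the size of the library, as the authors deposited them. The birds came from a commercial pure line, were of one age and were kept under the same feeding. The s_deep group held 3 birds with high and the s_light group 3 birds with low yellowness of the cloaca, and no agent was given to either. Each bird gave 1 piece of skin whose subcutaneous fat had been scraped off, and each library is named by its group and the wing number of the bird. The labels state neither sex nor batch, and the flock of the study held males and, in far larger number, females.

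The respiratory chain sits in the inner membrane of the mitochondrion. Complex I takes electrons from NADH and complex II from succinate, complex III hands them to cytochrome c, and complex IV passes them on to oxygen. The proton gradient built on the way drives complex V, the ATP synthase. Apart from complex II, the complexes also hold subunits that mitochondrial DNA encodes, which were not analysed here.

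The summed FPKM of the libraries ranged from 471488 to 488777. Skin genes were read at high levels, with a mean of 988 FPKM for the basal keratin KRT5 and 1156 FPKM for the collagen COL3A1. Genes of chromosome W, which in birds is carried by females alone, set 2 libraries apart. The mean log2(FPKM + 0.1) of 29 W genes was -1.05 in s_deep6402 and -1.36 in s_deep6403, against 3.59 in s_deep7858 and values from 3.38 to 3.62 in s_light. This mean is the W score. Of the s_deep birds, s_deep7858 alone had a W score at the level of s_light. Fits with the W score as a covariate thus rest mainly on s_deep7858 against the s_light birds. The study's colour classes, taken from photographs of the overall skin, list the wing number of s_deep6403 among nearly white birds. Its label rests on another measure, the yellowness of the cloaca. Where leaving out 1 library moved a named value by over 1.5 times, the value without it is given. In the values below, s_deep birds come in the order s_deep6402, s_deep6403, s_deep7858 and s_light birds in the order s_light6575, s_light6971, s_light8275.

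The respiratory chain genes were read at high and even levels. Their means over the 6 libraries had a median of 68.2 FPKM, against 8.41 FPKM for all 15900 genes tested. By complex, the median was 48.5 FPKM for complex I, 64.1 for II, 58.4 for III, 115 for IV and 119 for V. Together the 71 genes held from 1.13% to 1.28% of the FPKM of a library. Of this sum, complex I took 33.2% to 34.2%, complex II 3.98% to 4.85%, complex III 8.77% to 10.2%, complex IV 20.3% to 22.8% and complex V 30.2% to 31.3%. The complexes thus ranked alike by their share in every library. These are shares of the RNA of the genes chosen, not of the proteins of the chain. The highest library was under 1.5 times the lowest for 58 of the 71 genes (81.7%), against 37.7% of all genes tested and 60.2% of those with a mean of 10 FPKM or more. The SD of log2(FPKM + 0.1) over the 6 libraries had a median of 0.144 for the 71 genes and 0.189 for genes with a mean of 10 FPKM or more. It was 0.150 for 70 mitochondrial and 0.174 for 72 cytosolic ribosomal protein genes. Whether these spreads differ was not tested. In 4 genes the highest library was at least 1.8 times the lowest, and all of them lie on chromosome Z.

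**Figure D1:**
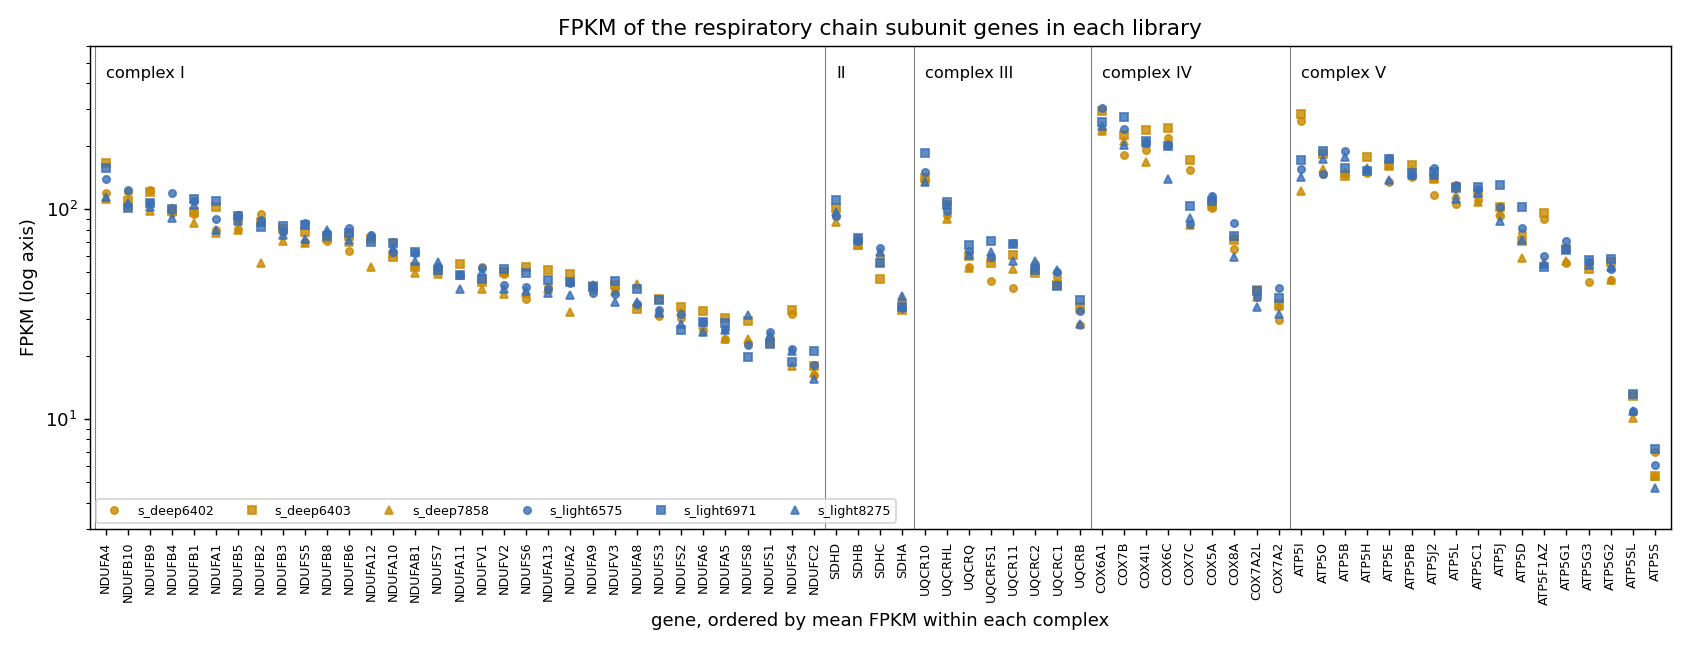
FPKM (log axis) of the 71 respiratory chain subunit genes in each of the 6 libraries, ordered by mean FPKM within each complex, with the libraries coloured by group. The points of a gene lie close together in most genes, and the 4 with a ratio of at least 1.8 are NDUFS4, COX7C, ATP5I and ATP5F1AZ.

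No respiratory chain gene differed between s_light and s_deep at an adjusted p of 0.05 or less and a log2 fold change of 1 or more in size (limma on log2(FPKM + 0.1), Benjamini-Hochberg adjustment). Among all genes tested, 7 (0.044%) did. The lowest adjusted p of the 71 genes was 0.768 (limma). At an unadjusted p under 0.05 there were 2 of the 71 genes, against 6.45% of all genes tested. They were NDUFB1, higher in s_light (background 3.49%), and ATP5F1AZ, lower in s_light (background 2.96%). In size the differences were small: log2 fold changes ran from -0.49 to 0.34, and standard errors had a median of 0.12. The 95% interval of limma lay within -1 and 1 for 69 of the 71 genes, the exceptions being COX7C and ATP5I, and within -0.5 and 0.5 for 56.

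The log2 fold change was above 0 for 52 of the 71 genes (73.2%), against 46.2% of all genes tested. Its median was 0.07, against -0.02 over all genes. By complex the median was 0.05 for I, 0.07 for II, 0.13 for III, 0.08 for IV and 0.09 for V. The spread between libraries within a group, as the pooled SD of their medians, was 0.076, 0.059, 0.078, 0.114 and 0.080 in the same order. Single libraries carried part of this lean: without s_deep7858 the median over the 71 genes was 0.04 with 44 above 0, without s_light6971 it was 0.04 with 44 above 0, and without s_deep6403 it was 0.13 with 55 above 0.

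**Figure D2:**
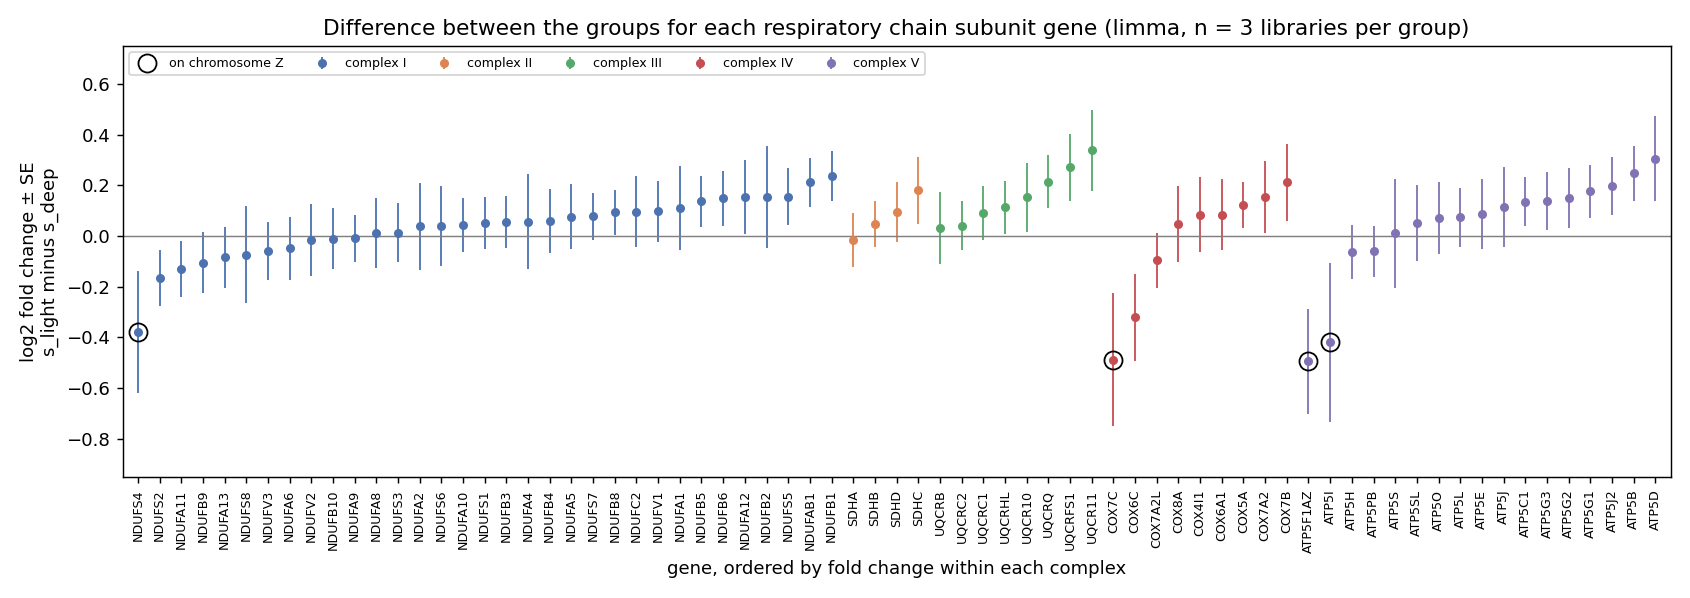
Log2 fold change (s_light minus s_deep, limma) with its standard error for each of the 71 genes, ordered within each complex and coloured by complex, n = 3 libraries per group. The largest increase is 0.34 (UQCR11), and the 4 circled genes of chromosome Z lie from -0.49 to -0.38.

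For 10 of the 71 genes (14.1%) the groups were apart with no overlap, against 10.8% of all genes tested. In 9 of them s_light was higher (background 5.36%), namely NDUFAB1, NDUFB1, NDUFB8, UQCRFS1, UQCRQ, COX5A, ATP5B, ATP5C1 and ATP5J2. In COX6C it was lower (background 5.48%). The largest of the 9 log2 fold changes was 0.27 (UQCRFS1).

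Complex I, the NADH dehydrogenase, has a matrix arm with the flavin and iron-sulfur centres and a membrane arm that pumps protons. The 3 NDUFV genes, which belong to the matrix arm around the flavin, had means from 41.2 to 48.2 FPKM. The 8 NDUFS genes, named for the iron-sulfur fraction, had means from 24.1 to 76.6 FPKM. The 9 NDUFB genes, of the membrane arm, had means from 72.8 to 111 FPKM, all above the NDUFV genes. The 12 NDUFA genes, found in both arms, spread from 26.8 to 135 FPKM. Of the 33 genes, 22 had a log2 fold change above 0.

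NDUFA4, first named as a complex I subunit and placed in complex IV in mammals, was the highest of the 33. The s_deep birds gave 119.17, 165.87 and 112.34 FPKM and the s_light birds 138.8, 156.69 and 114.79 FPKM. The highest and the lowest library were both of s_deep, so the groups overlapped throughout. NDUFC2, a small subunit of the membrane arm, was the lowest, with 16.17, 17.86 and 16.68 FPKM in s_deep birds and 18.02, 21.07 and 15.52 FPKM in s_light birds. Here the s_light birds gave both the highest and the lowest value.

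NDUFB1, a small subunit of the membrane arm, had 94.79, 96.96 and 85.68 FPKM in s_deep birds and 109.84, 112.28 and 104.5 FPKM in s_light birds. All s_light values were above all s_deep values, with means of 109 ± 3.98 against 92.5 ± 5.99 FPKM (SD, n = 3 each). Its log2 fold change came to 0.24 with a standard error of 0.10 (limma, unadjusted p = 0.0492, adjusted p = 0.769). NDUFAB1, the mitochondrial acyl carrier protein, had 53.51, 53.13 and 49.75 FPKM in s_deep birds and 62.02, 62.54 and 56.76 FPKM in s_light birds. These groups were also apart, at a log2 fold change of 0.21 (limma, standard error 0.10, adjusted p = 0.792). NDUFB8, another membrane arm subunit, was apart by a narrow gap, from 73.55 FPKM in the highest s_deep bird to 74.63 FPKM in the lowest s_light bird.

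Some genes of complex I were low in 1 library, and those named here were chosen after their values were seen. NDUFB2, of the membrane arm, had 55.7 FPKM in s_deep7858 and 82.19 to 95.08 FPKM in the other 5 libraries. NDUFA12 had 53.1 FPKM in s_deep7858 and 69.52 to 75.6 FPKM elsewhere, and NDUFA2 had 32.3 FPKM there and 38.99 to 49.38 FPKM elsewhere. Over the complex, s_deep7858 was the lowest library for 16 of the 33 genes (48.5%), against 17.4% of all genes tested. Other genes hardly moved. NDUFA9 ranged from 40.08 to 43.45 FPKM, and NDUFS1, which binds iron-sulfur clusters, from 22.81 to 25.92 FPKM.

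Complex II, succinate dehydrogenase, is shared with the TCA cycle and has nuclear genes alone. SDHA, the flavoprotein that oxidises succinate, was the lowest of the 4, with 36.66, 33.29 and 37.61 FPKM in s_deep birds and 33.94, 34.1 and 38.43 FPKM in s_light birds. SDHB, the iron-sulfur subunit, ranged from 67.41 to 73.18 FPKM, above every value of SDHA on this scale per length. SDHD, a membrane anchor, was the highest, with 93.14, 101.73 and 86.65 FPKM in s_deep birds and 92.46, 111.27 and 97.3 FPKM in s_light birds. SDHC, the other anchor, ranged from 46.38 to 65.7 FPKM and had the largest log2 fold change of the complex, 0.18 (limma, standard error 0.13, adjusted p = 0.948), which came to 0.07 without s_deep6403. The groups overlapped for all 4 genes.

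Complex III, the cytochrome bc1 complex, was the one complex with a log2 fold change above 0 in every gene, from 0.03 to 0.34, although UQCRB lay below 0 without s_deep6402, without s_light6971 and with the W score as a covariate. UQCR11, a small accessory subunit, had the largest increase of the 71 genes, with 42.14, 60.86 and 51.66 FPKM in s_deep birds and 68.95, 68.42 and 56.85 FPKM in s_light birds. The groups overlapped, as s_light8275 lay below s_deep6403, and the log2 fold change was 0.34 (limma, standard error 0.16, adjusted p = 0.809). It came to 0.20 without s_deep6402, the lowest library. UQCRFS1, the Rieske iron-sulfur protein, had 45.47, 55.71 and 58.47 FPKM in s_deep birds and 59.26, 70.57 and 62.29 FPKM in s_light birds. Its groups were apart by less than 1 FPKM, at a log2 fold change of 0.27 (limma, standard error 0.13, adjusted p = 0.824). This was 0.16 without s_deep6402 and 0.15 with the W covariate.

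UQCRQ, another small subunit, ranged from 52.62 to 59.81 FPKM in s_deep birds and from 60.87 to 67.91 FPKM in s_light birds. UQCR10 was the highest gene of complex III, with 136.28, 140.38 and 142.42 FPKM in s_deep birds and 149.75, 185 and 135.07 FPKM in s_light birds. The value in s_light6971 stood above the rest, and s_light8275 was the lowest of all. UQCRB, a small subunit near the ubiquinone site, was the lowest gene, with 28, 34.35 and 33.36 FPKM in s_deep birds and 32.62, 37.04 and 28.39 FPKM in s_light birds, which overlapped. Over the complex, s_light6971 was the highest library for 5 of the 8 genes. The core proteins UQCRC1 and UQCRC2 were not among these 5, and their highest value was in s_light8275.

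Complex IV, cytochrome c oxidase, held COX6A1, the highest of the 71 genes. The s_deep birds gave 239.81, 293.59 and 234.94 FPKM and the s_light birds 302.15, 260.99 and 250.19 FPKM, with overlap. COX4I1, which in mammals is the form of subunit 4 in most tissues, had 191.07, 239.39 and 168.11 FPKM in s_deep birds and 209.5, 212.23 and 206.02 FPKM in s_light birds. The s_light birds lay close together inside the wider range of s_deep. COX5A, a subunit on the matrix side, was apart between the groups by 105.87 to 109.69 FPKM.

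COX6C, a small membrane subunit, was the one gene of the 71 with all s_light values below all s_deep values. It had 218, 244.41 and 206.47 FPKM in s_deep birds and 202.26, 200.08 and 139.46 FPKM in s_light birds. The value in s_light8275 was far below the rest, and the log2 fold change was -0.32 (limma, standard error 0.17, adjusted p = 0.864). With the W score as a covariate it was -0.20. Without s_light8275 it came to -0.14, with an adjusted p of 0.995, in a range of 0.716 to 1 over its alternatives (limma).

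COX7A2, whose mammalian paralog is a muscle form, was the lowest gene of complex IV, with 29.77, 35.44 and 34.62 FPKM in s_deep birds and 42.34, 37.61 and 31.56 FPKM in s_light birds. COX7A2L, a relative that in mammals helps join complexes III and IV, had 41.21, 41.4 and 38.21 FPKM in s_deep birds and 38.3, 40.81 and 34.19 FPKM in s_light birds. COX8A had 64.86, 71.32 and 73.86 FPKM in s_deep birds and 85.59, 74.33 and 59.31 FPKM in s_light birds. The groups overlapped in all of these, and for COX7A2L and COX8A s_light8275 was the lowest library.

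Complex V, the ATP synthase, makes ATP in a head of alpha and beta subunits, driven by a shaft that a ring in the membrane turns. ATP5B, the catalytic beta subunit, had 147.26, 143.5 and 150.45 FPKM in s_deep birds and 189.8, 157.63 and 177.57 FPKM in s_light birds. The s_deep birds lay close together and below all s_light birds, with means of 147 ± 3.48 against 175.0 ± 16.2 FPKM (SD, n = 3 each). Its log2 fold change came to 0.25 with a standard error of 0.11 (limma, adjusted p = 0.79). ATP5C1, the gamma subunit that forms the shaft, was apart by a narrow gap, from 119.29 FPKM in the highest s_deep bird to 120.05 FPKM in the lowest s_light bird. ATP5D, the delta subunit at the shaft, had a log2 fold change of 0.31 but overlapping groups, with 102.38 FPKM in s_light6971 and 71.71 FPKM in s_light8275 (limma, standard error 0.17, adjusted p = 0.868). It was 0.17 without s_light6971, 0.19 without s_deep7858 and 0.54 with the W covariate.

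The c subunits that make up the ring come from 3 genes, whose mature proteins are alike in mammals. ATP5G1 had 55.61, 64.64 and 56.86 FPKM in s_deep birds and 70.41, 63.93 and 65.67 FPKM in s_light birds. ATP5G2 had 45.8, 55.98 and 45.95 FPKM in s_deep birds and 52.02, 58.25 and 53.03 FPKM in s_light birds. ATP5G3 had 44.89, 51.74 and 56.01 FPKM in s_deep birds and 55.98, 57.29 and 54.06 FPKM in s_light birds. Each gene overlapped between the groups. Their sum was 146, 172 and 159 FPKM in s_deep birds and 178, 179 and 173 FPKM in s_light birds, a sum that was not tested.

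ATP5S and ATP5SL carry the prefix of the synthase, though in mammals their products are not counted as its subunits. ATP5S was the lowest of the 71 genes, with 6.97, 5.37 and 5.34 FPKM in s_deep birds and 6.02, 7.2 and 4.71 FPKM in s_light birds. ATP5SL ranged from 10.13 to 13.12 FPKM, and the groups overlapped for both.

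On chromosome Z, of which male birds carry a pair and females a single copy, lie 4 of the 71 genes. They spread more between birds than the other 67, and their levels went with the reading of chromosome W. ATP5F1AZ, the alpha subunit of the ATP synthase, had 90.33, 95.5 and 56.12 FPKM in s_deep birds and 59.97, 52.79 and 54.66 FPKM in s_light birds. The libraries with W genes near 0 were high, and s_deep7858 lay among the s_light birds. The log2 fold change was -0.49 (limma, standard error 0.21, unadjusted p = 0.0477, adjusted p = 0.768).

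ATP5I, a small membrane subunit of the synthase and the highest gene of complex V, had 263.15, 284.96 and 122.28 FPKM in s_deep birds and 155.63, 172.2 and 143.03 FPKM in s_light birds. COX7C, a small subunit of complex IV, had 153.74, 171.39 and 84.1 FPKM in s_deep birds and 84.88, 103.77 and 91.31 FPKM in s_light birds. NDUFS4, an accessory subunit at the NADH end of complex I, had 31.85, 33.1 and 17.93 FPKM in s_deep birds and 21.7, 18.72 and 21.11 FPKM in s_light birds. In all 3, s_deep6402 and s_deep6403 were the highest pair and s_deep7858 the lowest library, so the groups overlapped. The log2 fold changes were -0.42 for ATP5I (standard error 0.31), -0.49 for COX7C (0.26) and -0.38 for NDUFS4 (0.24), with adjusted p from 0.868 to 0.948 (limma).

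**Figure D3:**
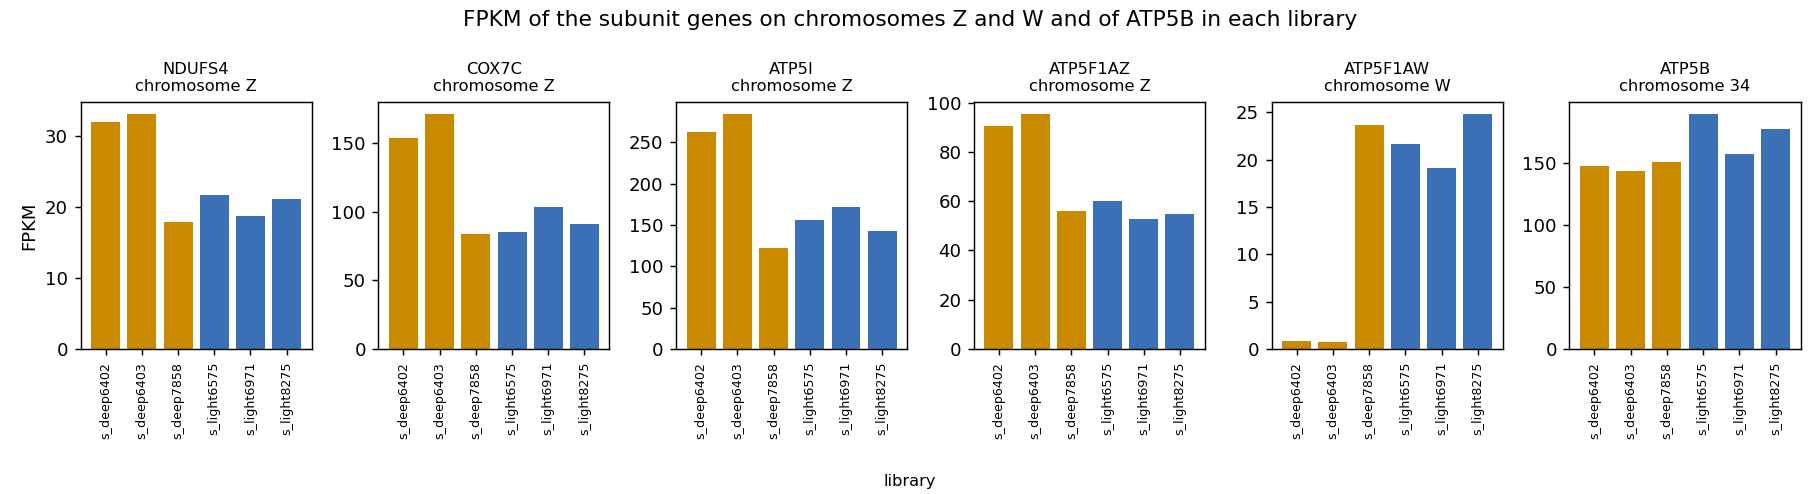
FPKM per library of the 4 respiratory chain genes on chromosome Z, of ATP5F1AW on chromosome W and of ATP5B for comparison, with 1 bar per bird coloured by group. The Z genes are highest in s_deep6402 and s_deep6403, where ATP5F1AW is at 0.84 and 0.79 FPKM, and lower in the other 4 libraries.

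Without s_deep7858 the log2 fold changes were -0.74 for ATP5F1AZ, -0.81 for ATP5I, -0.80 for COX7C and -0.66 for NDUFS4. Without s_deep6403 they were nearer to 0 for ATP5I (-0.20), COX7C (-0.29) and NDUFS4 (-0.22), as were ATP5I (-0.25) and NDUFS4 (-0.25) without s_deep6402. The lowest adjusted p without s_deep7858 was that of ATP5F1AZ, 0.0849, in a range of 0.0849 to 1 over its alternatives (limma). With the W gene score as a covariate the log2 fold changes of the 4 genes, in the order first given, were -0.02, 0.35, 0.14 and 0.17, so 3 of the 4 changed sign. These values rest mainly on s_deep7858 against the s_light birds. The same order of libraries was common on chromosome Z: s_deep6402 and s_deep6403 were the highest pair for 352 of the 634 Z genes tested (55.5%) and 1010 of the 13084 autosomal genes (7.72%). Of the 67 respiratory chain genes not on Z it was found in 4 (5.97%). As both libraries with W genes near 0 are of s_deep, yellowness and the W reading are partly confounded. Of the s_deep birds, s_deep7858 alone had W genes at the level of s_light, and its values of the 4 Z genes lay among or below those of the s_light birds. The parts of yellowness and of the W reading in the values of the Z genes were not tested.

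ATP5F1AW, the copy of the alpha subunit gene on chromosome W, is not one of the 71. It had 0.84, 0.79 and 23.7 FPKM in s_deep birds and 21.67, 19.12 and 24.86 FPKM in s_light birds. Reads of the Z and W copies can be assigned to either where they are alike, so the split between them is uncertain. The sum of both copies was 91.2, 96.3 and 79.8 FPKM in s_deep birds and 81.6, 71.9 and 79.5 FPKM in s_light birds, which brought the libraries closer together than ATP5F1AZ alone. The ratio of ATP5B to this sum was 1.61, 1.49 and 1.89 in s_deep birds and 2.33, 2.19 and 2.23 in s_light birds. The groups did not overlap in this ratio, but they did not overlap in ATP5B alone either. The ratio was chosen after the values were seen and was not tested.

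Apart from the Z genes, the chain shifted from library to library by small amounts. The median deviation of the 67 genes from their own means was -0.09, 0.04 and -0.07 on the log2 scale in s_deep birds and 0.04, 0.09 and -0.02 in s_light birds. The groups overlapped, as s_deep6403 lay with the higher s_light birds. Of the 67 genes, 24 (35.8%) were lowest in s_deep7858, against 17.4% of all genes tested, and NDUFA8 alone was highest there. The highest library was s_light6971 for 22 of the 67 (32.8%), against 17.6% of all genes tested. The complexes did not all shift alike: in s_light8275 the median was -0.14 for complex IV and 0.06 for complex III, and in s_deep6402 it was 0.05 for complex II and -0.14 for complex III. These differences between complexes were not tested.

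**Figure D4:**
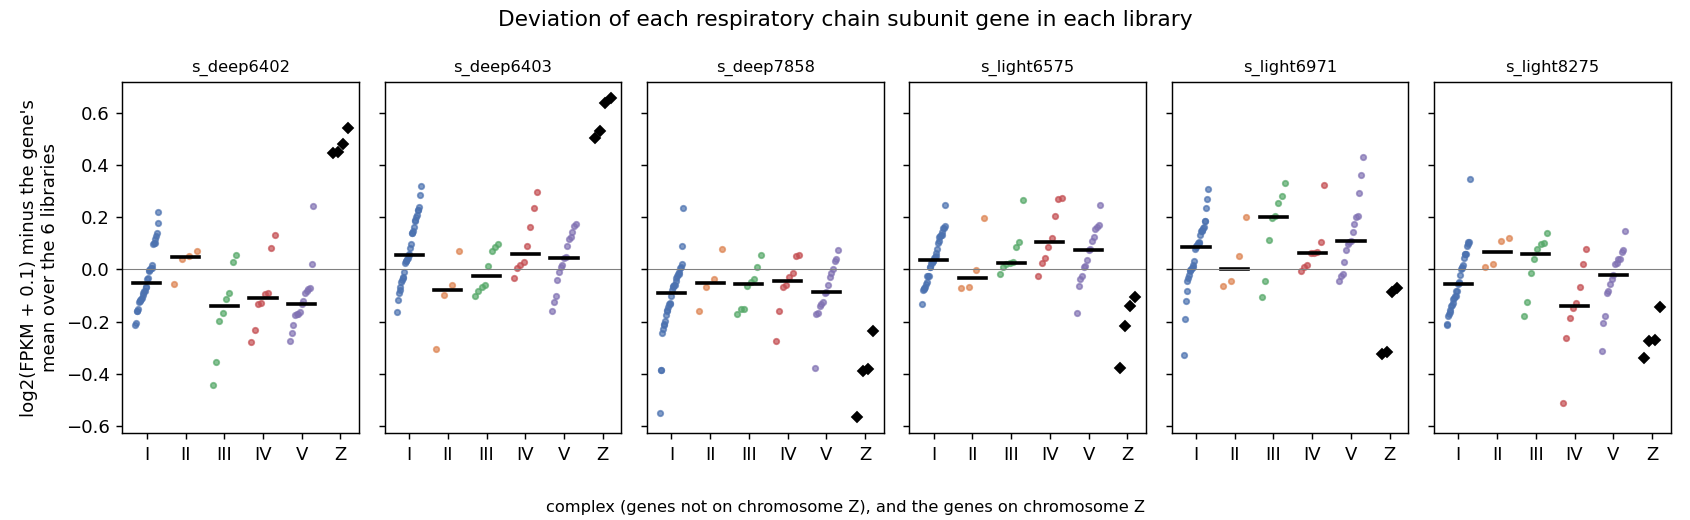
Deviation of log2(FPKM + 0.1) of each gene from its mean over the 6 libraries, with 1 panel per library, the genes not on chromosome Z by complex (black bars are medians) and the 4 genes of chromosome Z as diamonds. The medians lie from -0.14 to 0.20, while the median of the Z genes is 0.47 in s_deep6402, 0.58 in s_deep6403 and below 0 in the other 4 libraries.

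Genes that build, feed or regulate the chain were read from lists, and none of them passed the adjusted threshold. Of 41 assembly factors, 1 was higher and 0 were lower in s_light at an unadjusted p under 0.05 (limma), against 3.49% and 2.96% of all genes tested. It was COX20, a chaperone of complex IV, with 6.47, 7.2 and 9 FPKM in s_deep birds and 10.22, 13.17 and 9.72 FPKM in s_light birds (log2 fold change 0.54, standard error 0.19, adjusted p = 0.683, limma), a log2 fold change that was 0.30 with the W covariate. Of 12 regulators, ESRRG, a nuclear receptor that acts on mitochondrial genes, was the one past that p, at 1.75 FPKM or less in every library (log2 fold change 0.78, standard error 0.28, adjusted p = 0.698, limma). That value was 0.45 with a pseudocount of 1 and 0.43 with the W covariate. PPARGC1A, a coactivator of mitochondrial biogenesis, did not exceed 0.28 FPKM.

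Of 9 carriers and transporters, SLC25A4, the ADP/ATP carrier of heart and muscle in mammals, was the one past an unadjusted p of 0.05 (limma). Of all genes tested, 6.45% were. It had 9.36, 6.99 and 8.43 FPKM in s_deep birds and 15.28, 13.95 and 29.58 FPKM in s_light birds. The groups were apart and s_light8275 was the highest (log2 fold change 1.16, standard error 0.29, adjusted p = 0.45, limma). CYCS, the electron carrier cytochrome c, had 32.86, 48.68 and 52.11 FPKM in s_deep birds and 58.54, 52.48 and 53.86 FPKM in s_light birds. Smooth muscle markers summed to 1482 to 2902 FPKM in s_deep birds and 3328 to 6609 FPKM in s_light birds, also with s_light8275 the highest, and 7 of 9 markers had s_light above s_deep without overlap, against 5.36% of all genes tested. Their part in the result for SLC25A4 was not tested.

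None of 16 TCA cycle genes and none of 10 genes of fatty acid oxidation reached an unadjusted p of 0.05 (limma), against 6.45% of all genes tested. In lists this short, a count of 0 is near that share. The medians of the log2 fold change were 0.04 and 0.02. Of 14 glycolysis genes, 2 were higher (background 3.49%) and 1 was lower (background 2.96%) at that p. LDHA, a subunit of lactate dehydrogenase, had 166.96, 187.23 and 298.05 FPKM in s_deep birds and 158.86, 134.11 and 134.79 FPKM in s_light birds. The groups were apart, with s_deep7858 far above the rest (log2 fold change -0.57, standard error 0.22, adjusted p = 0.742, limma). It was -0.31 without s_deep7858 and -1.05 with the W covariate. ALDOC, an aldolase of glycolysis, was among the higher genes, with an adjusted p of 0.768 (limma). Of the 70 mitochondrial ribosomal protein genes 0 were higher and 3 lower at an unadjusted p under 0.05, and of the 72 cytosolic ones 0 and 1, against the same 3.49% and 2.96%. MRPL50 and MRPL17 among the former and RPS23, the cytosolic one, lie on chromosome Z and were highest in s_deep6402 and s_deep6403. The remaining mitochondrial one, MRPL43, lies on chromosome 6 (log2 fold change -0.39, standard error 0.13, adjusted p = 0.673, limma). For the cytosolic ones 12.5% of the log2 fold changes were above 0, against 46.2% of all genes tested. For 62 of the 72 (86.1%) s_light8275 was the lowest library, against 16.6% of all genes tested. Their median deviation was 0.14, 0.11 and -0.09 on the log2 scale in s_deep birds and -0.04, 0.12 and -0.25 in s_light birds.

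Other cell types were read from marker lists, in which no marker was listed at 0 in all 6 libraries. Some lists could be read only in part, among them striated muscle (7 of 10 markers), leukocytes (4 of 5) and erythrocytes (4 of 5). Adipocyte markers summed to 1566 to 1879 FPKM in s_deep birds and 2320 to 2396 FPKM in s_light birds. Without overlap, 4 of 7 were higher, against 5.36% of all genes tested. Among these 4 was FABP4, with means of 546 FPKM in s_deep and 1125 FPKM in s_light. The log2 fold change was above 0 for 6 of the 7 and -0.35 for the remaining marker. ADIPOQ had the highest mean of the list over all libraries, 903 FPKM, which gives no direction. Leukocyte markers summed to 2456 to 2819 FPKM in s_deep birds and 1750 to 2339 FPKM in s_light birds. CD74 made up most of that sum and was the 1 of 4 markers that was lower without overlap (background 5.48%). The sums of erythrocyte markers (20.7 to 41.8 against 43.7 to 54.9 FPKM) and melanocyte markers (3.92 to 4.05 against 4.64 to 5.52 FPKM) were apart too, but 0 of the 3 markers tested in each list were. The sums of keratinocyte, fibroblast, endothelial and striated muscle markers overlapped, and those of striated muscle did not exceed 6.53 FPKM. Single markers were lower without overlap in 2 of these lists (background 5.48%), DSG2 of 9 keratinocyte and KDR of 5 endothelial markers. The log2 fold change was above 0 for 1 of the 9 and 0 of the 5, against 46.2% of all genes tested. In bulk skin, fewer cells of a type and less RNA per cell cannot be told apart, and the part of these cell types in the values of the respiratory chain genes was not tested.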

How the data were processed

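RNA of 6 skin samples was purified with oligo(dT) beads and read single-end. The methods name TopHat and the assembly Gallus_gallus-5.0, while the submitters' processing notes name HISAT2 2.0.4, Bowtie2 2.2.5, RSEM 1.1.12 and DESeq2 1.4.5 without roles. The sources also differ on the sequencer. The authors deposited FPKM per gene, rounded to 2 decimals. The study states the total reads of each library, but the reads behind a gene's value were not recovered, as low values showed no steps between libraries. Symbols and chromosomes came from a RefSeq table (GRCg7b, 83.5% of IDs matched), another assembly than the authors' one, so coordinates were not taken. The 15900 genes whose mean was 0.1 FPKM or more were tested with limma 3.58.1 in R 4.3.3 on log2(FPKM + 0.1), which understates changes of low genes. The variance followed an intensity trend, fold changes are s_light minus s_deep, and Benjamini-Hochberg adjustment ran over all tested genes. The procedure was tested on simulated data with independent noise in each gene, which cannot show how it behaves where genes of a library shift together. Samples were grouped by title. The p-values set the difference between the groups against a variance between libraries that limma moderates over all tested genes. With 1 library per bird, this variance does not separate bird, piece of skin and library.

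Members and lists were chosen with earlier results of these data known. The rule gave values in every library for genes with an unadjusted p under 0.05, the highest and lowest gene of each complex, the largest fold change in each direction, Z genes and genes with tissue-specific paralogs, and at most 3 genes per other list by lowest p. Other genes, among them those whose groups did not overlap, were named after their values were seen. Tried as alternatives were other pseudocounts (1, 0.01), other filters (none, 1 FPKM), other scalings (median-of-ratios, quantile), a fit without the trend, the W score as covariate, a fit without W and Z genes, and leaving out each library. NDUFA7, NDUFB7 and NDUFB11 were not analysed here. A gene of the glycolysis list is not reported here by name.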

Additional observations from a re-analysis of the deposited data

How the results depend on the processing

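No respiratory chain gene passed the adjusted threshold under any of the 15 alternatives, and the lowest adjusted p was 0.0849 (ATP5F1AZ without s_deep7858, limma). The median log2 fold change of the 71 genes stayed above 0, from 0.04 to 0.14. That of complex I was 0.00 without s_deep7858 and without s_light6971, and 0.13 with the W covariate. With each library left out the medians ran from 0.03 to 0.10 for complex II (lowest without s_light6971), 0.13 to 0.19 for III, 0.00 to 0.14 for IV (lowest without s_light6575) and 0.04 to 0.16 for V (lowest without s_light6971), and quantile scaling gave 0.02 for IV. The count at an unadjusted p under 0.05, 2 as reported, was 1 with a pseudocount of 0.01, a minimum of 1 FPKM or W and Z genes left out, 0 without the intensity trend, and 5 without a filter or with the W covariate. With each library left out it ran from 0 to 4, and the 4 without s_deep7858 were the Z genes. Genes without overlap between the groups, 10 as reported, numbered 7 with quantile scaling and 12 with median-of-ratios scaling. They numbered 13 to 22 with a library left out, where fewer libraries are compared and groups fall apart more easily. For both kinds of count, the share of all genes tested under each alternative is not given here. The counts under the alternatives thus cannot be set against a background. Among all genes tested, 7 were called as reported, 11 with a pseudocount of 1, 12 with median-of-ratios scaling, 3 with the W covariate and 0 to 69 with each library left out, 69 being without s_deep7858. With median-of-ratios scaling 78.9% of the 71 genes were above 0, beside 51.3% of all genes tested. With the W covariate the shares were 80.3% and 48.2%, and without s_deep7858 they were 62.0% and 46.7%. The W covariate changed the sign of 11 of the 71 genes, among them COX7C (0.14), ATP5I (0.35), NDUFS4 (0.17) and NDUFB9 (0.10), median-of-ratios scaling that of 4, and leaving out a library that of 4 to 14. Values with the W covariate rest mainly on s_deep7858 against the s_light birds. The cause of these changes was not tested. No paired analysis was possible because the groups share no wing number. As reads per gene were not used here, no counting error is given, which matters most for the lowest genes, ATP5S and ATP5SL.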
